A study of Homo sapiens with 62 samples.

Results

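The B cell receptor signalling genes described here were CD79A, CD79B, CD22, LYN, BLK, SYK, BTK, BLNK and PLCG2. They were chosen by name, and each matched exactly 1 row of the deposited tables, which gave 9 members of 49115 rows kept. All 9 passed the filter on low values, a mean of 1 FPKM or more over the 20 libraries (FPKM is fragments per kilobase of transcript and per megafragment mapped). The libraries came from GM12878, a human B-lymphoblastoid cell line immortalised with Epstein-Barr virus. Each was a split of a pool of 10 cells, prepared with a SMARTer kit as if the split were a single cell, and no split was treated with any agent. The 10 numbered splits carry the numbers 1 to 10 in their titles, and the 10 unnumbered splits carry only a library number (232, 233 and 246 to 253). Nothing in the labels says outright that a set is 1 pool, and the titles of 9 of the 10 unnumbered splits, all but split 247, mark them as superseded.

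The B cell receptor is a membrane immunoglobulin that binds antigen but has almost no cytoplasmic tail of its own. The signal passes through CD79A and CD79B, whose tails carry a tyrosine motif called an ITAM (immunoreceptor tyrosine-based activation motif). SRC-family kinases such as LYN and BLK phosphorylate the tyrosines, SYK docks on them, and the adaptor BLNK then brings BTK to PLCG2, the phospholipase that releases calcium from internal stores. CD22 dampens the signal through inhibitory tyrosine motifs (ITIMs) that recruit phosphatases. In cells latently infected with Epstein-Barr virus the viral protein LMP2A can engage LYN and SYK in place of the receptor.

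The coding bases of these motifs are shown because the levels of CD79A, CD79B and CD22 are described first below. The ITAM is what LYN and BLK phosphorylate and what SYK docks on. They were read from the longest coding transcript of each gene in GENCODE 29 (GRCh38), 5′ to 3′ on the coding strand, with the tyrosine codons of each motif in capitals. An ITAM was searched as a tyrosine, any 2 residues and a leucine or isoleucine, repeated after a gap of 6 to 8 residues. That of CD79A covers codons 188 to 202 of 226 and lies at chr19:41880733-41880905 (plus strand), split between exons 4 and 5 of 5. That of CD79B covers codons 196 to 210 of 229 and lies at chr17:63929286-63929439 (minus strand), split between exons 5 and 6 of 6.
CD79A: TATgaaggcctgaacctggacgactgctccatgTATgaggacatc
CD79B: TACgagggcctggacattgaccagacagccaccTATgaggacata
Both runs are 45 bases long, and 31 of the 45 bases (68.9%) are the same.

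In CD22 the last 150 codons hold 4 matches to the inhibitory motif, an isoleucine, leucine, valine or serine, any residue, a tyrosine, any 2 residues and a leucine or valine. They lie on the plus strand of chromosome 19 in exons 12, 13, 14 and 14 of 14, at chr19:35345671-35345688, chr19:35346203-35346220, chr19:35346611-35346628 and chr19:35346671-35346688.
CD22 site 1: attagcTACaccaccctg
CD22 site 2: gtcactTATtcagcattg
CD22 site 3: attcatTACtcagagctg
CD22 site 4: gtggacTATgtgatcctc
A gene's FPKM covers the whole transcript, so the values below say nothing of these exons alone.

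The 9 genes were found unevenly over the splits. Of the 90 values of 9 genes in 10 splits, 69 (76.7%) stood at 1 FPKM or more in the numbered splits, against 40 (44.4%) in the unnumbered splits. Over all 10506 genes tested the same shares were 47.5% in the numbered and 39.4% in the unnumbered splits. These shares were not matched for level, and the 9 genes averaged 4.54 to 196 FPKM over the 20 libraries. Genes with a set mean of 1 to 3 FPKM reached 1 FPKM in a median of 2 splits of either set. At a set mean of 30 to 100 FPKM the median was 7 numbered and 6 unnumbered splits. A further 11 values in the numbered and 30 in the unnumbered splits lay between 0 and 1 FPKM, and 10 and 20 were listed at 0. A numbered split held 3 to 9 of the genes (median 7) and an unnumbered split 1 to 6 (median 4). Numbered splits 6 and 7 held all 9 genes and split 9 only LYN, BLNK and CD79A, and unnumbered split 247 held only BLNK. Summed over the 9 genes, the level was 527 ± 264 FPKM in numbered and 430 ± 276 FPKM in unnumbered splits (SD, n = 10 each).

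**Figure D1:**
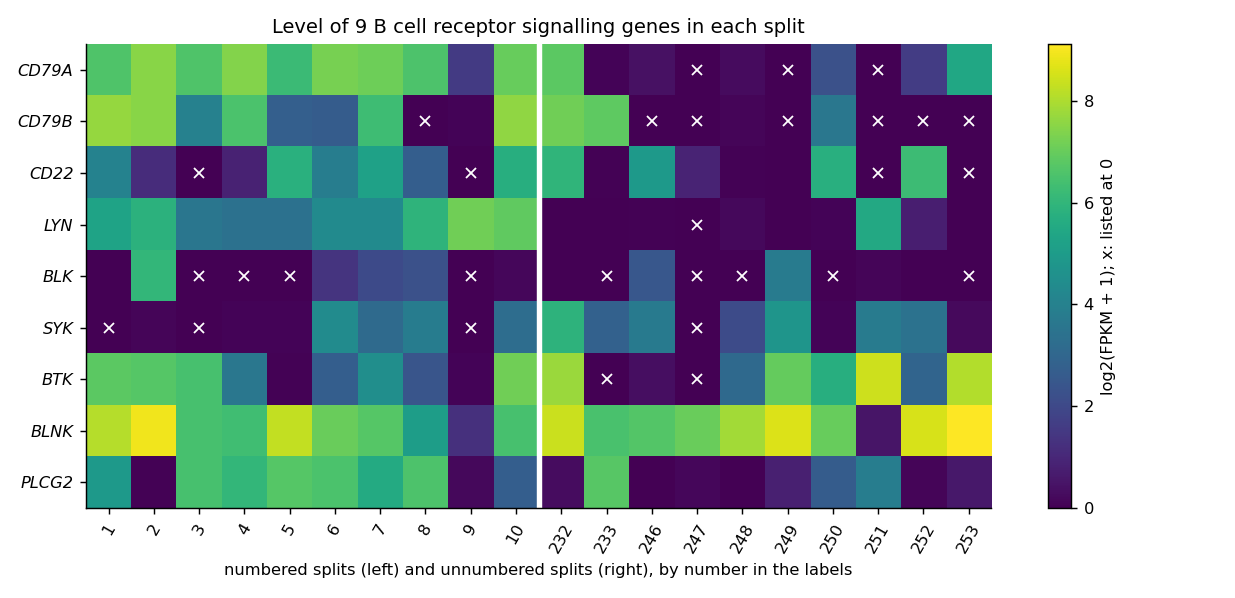
Level of each gene, as log2(FPKM + 1) in colour, in the 10 numbered splits on the left and the 10 unnumbered splits on the right; a cross marks a value listed at 0. BLNK stands at 1 FPKM or more in nearly every split of both sets, while LYN does so in every numbered split and in 1 unnumbered split.

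The depth behind these values, estimated from the authors' confidence bounds, was 11.7 to 20.6 megafragments in the numbered splits. It was 7.78 to 38.7 megafragments in the unnumbered splits other than split 247, which had 0.128 megafragments. In split 247, BLNK was listed at 131 FPKM, where 3 fragments on its longest transcript amount to 13.2 FPKM. CD79A and LYN were listed at 0 there. For them 3 fragments amount to 18.7 and 4.05 FPKM, so a 0 limits these genes only to levels below such values. These limits cover counting error only. Genes at 1 FPKM or more numbered 3771 to 7671 per numbered split and 2942 to 4792 per unnumbered split, with split 9 the lowest of the numbered set and split 253 the lowest of the unnumbered set. The values of any 2 libraries were not identical.

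The cell line's identity was checked against markers. The B cell genes MS4A1 and CD74 stood above 1 FPKM in all 20 splits. Other B cell markers did not: CD40 reached 1 FPKM in 10 numbered and 6 unnumbered splits, PAX5 in 5 and 6, and EBF1 in 6 and 3. The sum of 6 B cell markers was 4330 to 7553 FPKM in numbered and 1515 to 3537 FPKM in unnumbered splits, so this sum moved with the sets as well. Most of it was CD74 (medians 5362 and 2403 FPKM, where the sum had medians of 6452 and 2697 FPKM). Erythroid HBA1 and HBB, monocyte CD14 and S100A8, NK cell GNLY and T cell CD3D were listed at 0 in all 20 splits. The sum of 5 T cell markers was 0 to 53.4 FPKM in numbered and 0 to 5.61 FPKM in unnumbered splits, carried by CD2 (1 FPKM or more in 6 and 1 splits) and CD3E (3 and 0 splits). The sum of 4 NK cell markers was 0 to 92.2 FPKM in numbered and 0 to 243 FPKM in unnumbered splits, and only NKG7 reached 1 FPKM (5 and 1 splits). The sum of 5 monocyte markers was 1.46 to 53.8 FPKM in numbered and 0.902 to 1.65 FPKM in unnumbered splits, nearly all of it CSF1R. The part of any of these in the results was not tested.

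CD79A and CD79B form the signalling pair of the receptor. CD79A (chromosome 19, 42381190 to 42385439 in the coordinates of the deposited tables) ranged from 1.95 to 177 FPKM (median 111) in the numbered splits, against 0 to 110 FPKM (median 0.270) in the unnumbered splits. All numbered splits but split 9 stood above 70 FPKM, whereas in the unnumbered set only split 232, at 110 FPKM, and split 253, at 41.9 FPKM, exceeded 10 FPKM. The sets overlapped, with 5 numbered splits above every unnumbered split and 6 unnumbered splits below every numbered split. The mean was 112 ± 52.2 FPKM (SD, n = 10) in the numbered splits, and 3 unnumbered splits were listed at 0. The difference on the log2(FPKM + 1) scale was 4.69 (SE 0.98, 95% interval 2.67 to 6.71, limma adjusted p = 0.00274). Without numbered splits 5 to 8 it no longer passed (4.42, limma adjusted p = 0.0533). Relative to the median of all genes tested, which was itself 0.35 higher in the numbered splits, it was 4.34. In samples of pooled cells, fewer cells with a transcript and less RNA per cell cannot be told apart. Nor can either be told apart here from differences in capture or amplification between splits, or from a batch.

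CD79B (chromosome 17, 62006100 to 62009714) ranged from 0 to 205 FPKM (median 45.8) in the numbered splits, against 0 to 138 FPKM (median 0) in the unnumbered splits. Numbered splits 1, 2 and 10 stood at 181 to 205 FPKM, above every unnumbered split, while unnumbered splits 232 and 233 reached 138 and 115 FPKM and 6 of the others were listed at 0. The log2 difference of 2.74 (SE 1.27, 95% interval 0.12 to 5.35) did not pass (limma adjusted p = 0.278).

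The partners were not always found together. Both chains stood at 1 FPKM or more in 8 numbered and 2 unnumbered splits. CD79A stood alone in 2 numbered and 2 unnumbered splits, CD79B alone in 0 numbered and 1 unnumbered split, and 5 unnumbered splits held neither. Where both were found in the numbered set, the ratio of CD79B to CD79A ran from 0.0350 in split 6 to 2.15 in split 1. Numbered split 8 had 93.7 FPKM of CD79A and 0 of CD79B, and unnumbered split 233 had 0.0555 FPKM of CD79A and 115 FPKM of CD79B. Single splits therefore differed widely in the balance of the partners.

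**Figure D2:**
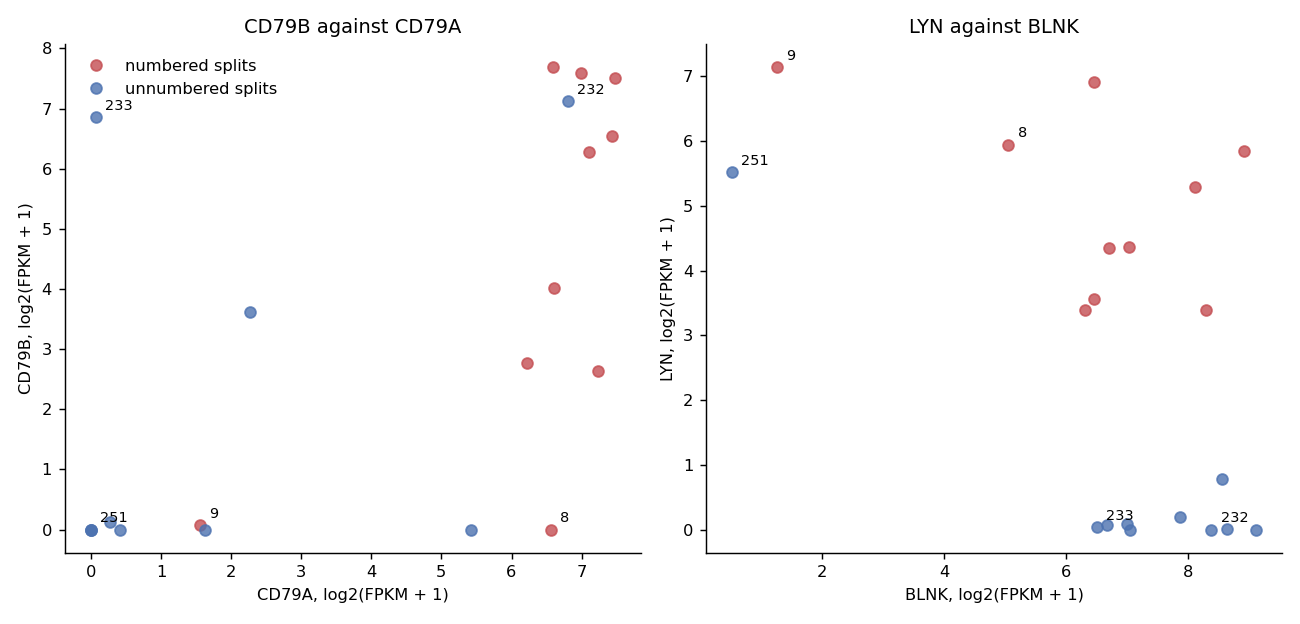
CD79B against CD79A (left) and LYN against BLNK (right) in log2(FPKM + 1), with 1 point per split in red for numbered and blue for unnumbered splits; splits 8, 9, 232, 233 and 251 are marked. Split 233 has CD79B with almost no CD79A and split 8 the reverse, and splits 9 and 251 combine the lowest BLNK of their sets with the highest LYN.

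CD22 (chromosome 19, 35820072 to 35838258), the inhibitory sialic acid-binding receptor, ranged from 0 to 53.8 FPKM (median 9.48) in the numbered splits, against 0 to 74.2 FPKM (median 0.453) in the unnumbered splits. It reached 1 FPKM in 7 numbered and 4 unnumbered splits, and the sets overlapped throughout, with no numbered split above the highest unnumbered one. The log2 difference was 0.54 (SE 1.14, 95% interval -1.80 to 2.89, limma adjusted p = 0.818). Without splits 5 to 8 it was -0.43, so its direction turned with these splits. A microRNA gene, MIR5196, overlaps the locus and its row was not used.

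Among the SRC-family kinases, LYN (chromosome 8, 56792372 to 56923939) separated the sets most cleanly of the 9 genes. It ranged from 9.5 to 140 FPKM (median 28.8, mean 48.3 ± 46.9, SD, n = 10) in the numbered splits, against 0 to 44.7 FPKM (median 0.0370) in the unnumbered splits. In the unnumbered set 9 splits lay below 1 FPKM and below every numbered split, and only split 251, at 44.7 FPKM, overlapped with the numbered splits. The log2 difference was 4.35 (SE 0.82, 95% interval 2.67 to 6.03, limma adjusted p = 8.38e-04), or 4.0 relative to the median of all genes. The 2 highest LYN levels were those of numbered splits 9 and 10, at 140 and 119 FPKM, and in split 9 each of the other 8 genes stood below 2 FPKM. Of the 4 rows that overlap the LYN locus, 3 stood at a mean of at most 0.44 FPKM, and the row of AC018607.1 was not used.

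BLK (chromosome 8, 11351510 to 11422113), a kinase of B lymphoid cells, was low in nearly all splits. It ranged from 0 to 64.5 FPKM (median 0.0617) in the numbered splits, against 0 to 13.0 FPKM (median 0.000208) in the unnumbered splits. Numbered split 2 alone held 64.5 FPKM, and the next numbered split held 3.79 FPKM. The log2 difference was 0.55 (SE 0.74, 95% interval -0.98 to 2.07, limma adjusted p = 0.705). An overlapping row, RP11-148O21.2, stood at a mean of 2.43 FPKM, and the sources used here do not give the strand setting of the counting, so reads of the pair may not be separable.

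SYK (chromosome 9, 93564069 to 93660831), which docks on the phosphorylated ITAMs, ranged from 0 to 19.9 FPKM (median 0.0789) in the numbered splits, against 0 to 57.8 FPKM (median 7.95) in the unnumbered splits. It reached 1 FPKM in 4 numbered and 7 unnumbered splits, and the highest value, 57.8 FPKM, belonged to unnumbered split 232. The log2 difference of -1.19 (SE 0.92, 95% interval -3.08 to 0.69) did not pass (limma adjusted p = 0.546). Of numbered splits 5 to 8, splits 6, 7 and 8 held SYK, and of the other 6 numbered splits only split 10 did.

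LYN and SYK act one after the other on the ITAM, yet few splits held both. Both stood at 1 FPKM or more in 4 numbered splits and 1 unnumbered split. LYN stood without SYK in 6 numbered and 0 unnumbered splits, and SYK without LYN in 0 numbered and 6 unnumbered splits. Each of these counts follows from the levels of the 2 genes in the sets, and their joint count was not tested.

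BLNK (chromosome 10, 97951458 to 98031333), the adaptor that SYK phosphorylates, had the highest mean of the 9 genes in both sets, though in the numbered splits its median was below that of CD79A. It ranged from 1.4 to 478 FPKM (median 94.9, mean 158 ± 149) in the numbered splits, against 0.442 to 553 FPKM (median 182, mean 233 ± 174) in the unnumbered splits (SD, n = 10 each). Apart from numbered split 9 and unnumbered split 251, every split held at least 30 FPKM. BLNK led the 9 genes in 3 numbered and 8 unnumbered splits. The log2 difference was -0.57 (SE 0.95, 95% interval -2.53 to 1.39, limma adjusted p = 0.765), and without split 9 it was 0.0060. The zinc finger gene ZNF518A overlaps the locus with a mean of 19.2 FPKM over the 20 libraries.

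BTK (chromosome X, 100604435 to 100641183), the TEC-family kinase that activates PLCG2, ranged from 0.0358 to 141 FPKM (median 16.6, mean 48.6 ± 55.4, SD, n = 10) in the numbered splits, against 0 to 342 FPKM (median 29.6) in the unnumbered splits. Both sets ran from near 0 to over 100 FPKM. Unnumbered splits 251, 253 and 232 held 342, 263 and 216 FPKM, and 2 other unnumbered splits were listed at 0. The log2 difference was -0.28 (SE 1.30, 95% interval -2.96 to 2.40, limma adjusted p = 0.923). Its direction turned with which splits were left out, and without splits 5 to 8 it was 0.81.

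PLCG2 (chromosome 16, 81772702 to 81991899), the phospholipase at the end of this chain, ranged from 0.0272 to 104 FPKM (median 55.9, mean 52.3 ± 41.6) in the numbered splits, against 0.000412 to 106 FPKM (median 0.369, mean 12.7 ± 33.1) in the unnumbered splits (SD, n = 10 each). It reached 1 FPKM in 8 numbered and 3 unnumbered splits, and unnumbered split 233, at 106 FPKM, was the highest of all 20. The log2 difference of 3.05 (SE 1.08, 95% interval 0.82 to 5.29) had an unadjusted p of 0.00944 and did not pass after adjustment (limma adjusted p = 0.117). It did pass without numbered split 2 (3.56, adjusted p = 0.0476), without numbered split 9 (3.54, adjusted p = 0.0453) or without unnumbered split 233 (3.63, adjusted p = 0.0321) in the same limma fit. An overlapping row, RP11-960L18.1, stood at a mean of 10.6 FPKM.

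BTK and PLCG2 both stood at 1 FPKM or more in 7 numbered and 2 unnumbered splits. SYK and its substrate BLNK both did in 4 numbered and 6 unnumbered splits, and LYN and BLK both in 4 numbered and 0 unnumbered splits. A pair can be complete in no more splits than held its rarer gene. PLCG2 reached 1 FPKM in 3 unnumbered splits, LYN in 1 unnumbered split and SYK in 4 numbered splits. The differences between the pair counts were not tested.

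**Figure D3:**
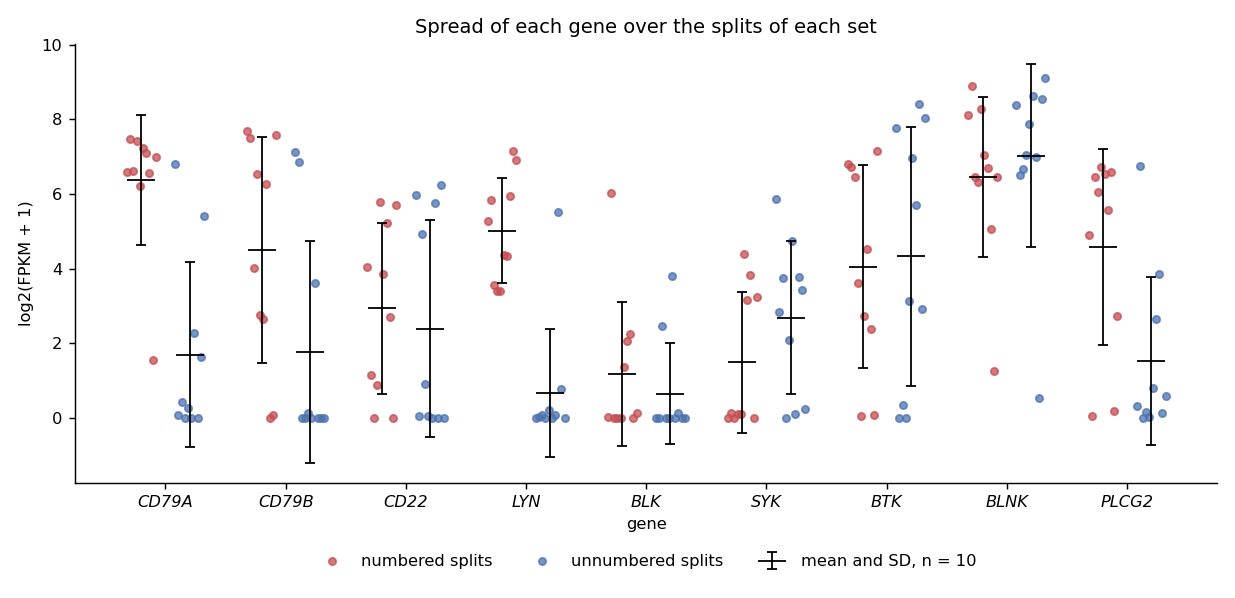
Each gene's level in log2(FPKM + 1) on the y axis, with 1 point per split, in red for the 10 numbered and in blue for the 10 unnumbered splits, and the mean with its SD. LYN and CD79A sit high in the numbered and near 0 in most unnumbered splits, while BTK and BLNK overlap widely between the sets, with the highest values of both in unnumbered splits.

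In all, 2 of the 9 genes, CD79A and LYN, were higher in the numbered splits and 0 were higher in the unnumbered splits at a limma adjusted p of 0.05 or less. Among all 10506 genes tested 5.31% passed in either direction, 3.93% as higher in the numbered splits and 1.38% in the other direction. With the trend on transcript length removed, all genes gave 234 and 224 calls in these directions in place of 413 and 145, and the 2 genes still passed. Of the 9 genes 4 had an unadjusted p below 0.05, against 16.3% of all genes tested. The median log2 difference of the 9 was 0.55, against 0.35 for all genes tested, and 6 differences were above 0 and 3 below. An exact rank-sum test in place of limma also called CD79A and LYN, with 9.07% of all genes tested. None of the 9 had sets that did not overlap, which 2% of all genes tested had.

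Splits 5 to 8 of the numbered set carry laboratory experiment numbers that lie apart from those of all other splits. In the unnumbered set, the experiment numbers of splits 232 and 233 lie apart from those of splits 246 to 253. Whether any of these splits were prepared apart is not stated. No run of numbers holds splits of both sets, so the set and any batch it was made in cannot be told apart. Between splits 5 to 8 and the other 6 numbered splits, 0 of the 9 genes passed in limma (lowest adjusted p 0.824, lowest unadjusted p 0.0599), 0.00952% of all genes tested did, and the log2 differences, splits 5 to 8 minus the others, ran from -2.72 for BTK and -2.65 for CD79B to 2.42 for CD22 and 2.96 for PLCG2. CD79A averaged 113 ± 35.9 FPKM (n = 4) in splits 5 to 8 and 111 ± 64.2 FPKM (n = 6) in the other numbered splits. CD79B averaged 126 ± 16.6 FPKM (n = 2) in splits 232 and 233 and 1.41 ± 3.97 FPKM (n = 8) in the other unnumbered splits. LYN averaged 0.0120 ± 0.0169 FPKM (n = 2) and 5.71 ± 15.8 FPKM (n = 8) in the same groups. The higher LYN mean rested on split 251, at 44.7 FPKM, and the median of these 8 splits was 0.0545 FPKM. The differences in CD79B and LYN within the unnumbered set were not tested. Without splits 5 to 8, LYN stayed past the threshold (4.69, limma adjusted p = 0.00473) and CD79A did not, so that 1 of the 9 genes passed, where 4.26% of all genes tested did (3.14% as higher in the numbered splits, 1.12% in the other direction). With numbered split 9 and unnumbered splits 247 and 253 left out, which stand apart in genes found or depth, the differences were 5.48 for CD79A and 3.95 for LYN (limma adjusted p of 1.95e-04 and 0.00541).

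**Figure D4:**
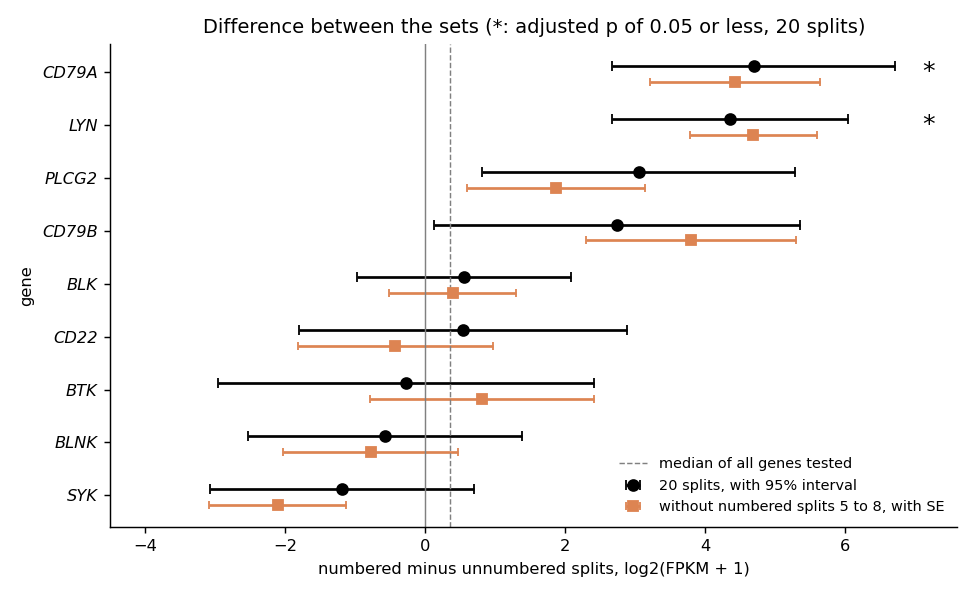
Difference between numbered and unnumbered splits in log2(FPKM + 1) for each gene: black circles use all 20 splits with a 95% interval, and orange squares leave out numbered splits 5 to 8 and carry an SE. An asterisk marks an adjusted p of 0.05 or less, the dashed line is the median of all genes tested, and only CD79A (4.69) and LYN (4.35) carry an asterisk.

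The authors' confidence bounds cover counting and assignment error of single libraries, not differences in capture or amplification between splits, so bounds that lie apart are a description and no test. Of the 45 pairs of splits in each set, the bounds lay apart in 32 to 43 numbered pairs and 24 to 44 unnumbered pairs, depending on the gene. They lay apart most often for BLNK (43 pairs) and BTK (42) in the numbered splits and for SYK (44) and BTK (41) in the unnumbered splits. The lowest counts were those of SYK (32) in the numbered splits and of CD79B and BLK (24 each) and PLCG2 (26) in the unnumbered splits.

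The coefficient of variation (CV, the SD over the mean) was read against genes of the same level. CD79A had a CV of 0.465 in the numbered splits, below the quartiles (0.539 to 0.911) of genes at 100 to 300 FPKM, and of 2.24 in the unnumbered splits, within the quartiles (1.63 to 2.78) of genes at 10 to 30 FPKM. BLNK had a CV of 0.943 in the numbered splits, above the same quartiles of genes at 100 to 300 FPKM, and of 0.745 in the unnumbered splits, within the quartiles of its level. SYK varied less than most genes of its level in both sets (1.43 in numbered and 1.38 in unnumbered splits), and so did CD22 (1.20 and 1.37). Of the 9 genes, 4 lay below, 4 within and 1 above the quartiles in the numbered splits, and 2, 6 and 1 in the unnumbered splits.

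**Figure D5:**
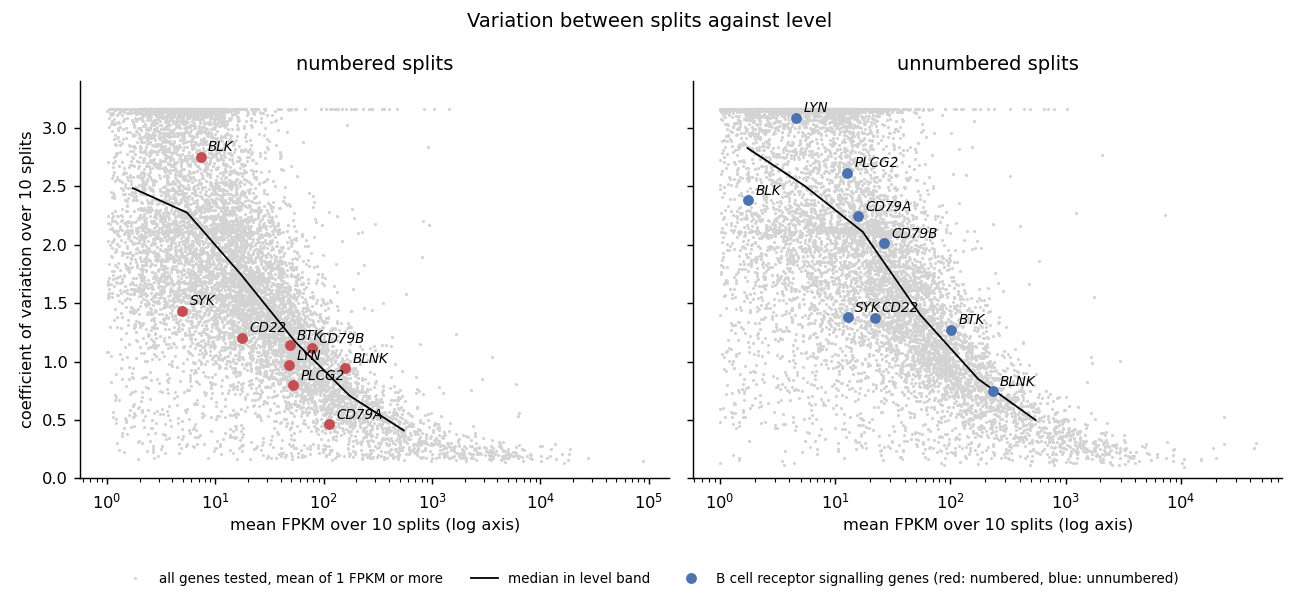
Coefficient of variation over 10 splits against mean FPKM (log axis), for numbered splits on the left and unnumbered splits on the right; grey points are all genes tested with a mean of 1 FPKM or more, and the line joins medians of level bands. CD79A (0.465) lies under the line in the numbered splits, and CD22 and SYK lie under it in both panels.

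Ordered by mean FPKM, a scale that corrects for transcript length, the numbered splits ran BLNK (158), CD79A (112), CD79B (77.2), PLCG2 (52.3), BTK (48.6), LYN (48.3), CD22 (17.8), BLK (7.32) and SYK (4.96). The unnumbered splits ran BLNK (233), BTK (101), CD79B (26.4), CD22 (22.0), CD79A (15.9), SYK (12.8), PLCG2 (12.7), LYN (4.57) and BLK (1.76). Neighbours were compared on log2(FPKM + 1) by an exact 2-sided sign-flip permutation test over the 10 splits of a set. None of the 16 pairs passed after adjustment (smallest adjusted p 0.312). The neighbours were picked as nearest in mean FPKM in these same splits, so a lack of calls says little about the order. Before adjustment, in the numbered splits, this test gave p = 0.0371 for CD79A against CD79B and 0.0391 for LYN against CD22. BLNK, first by mean, was above CD79A in only 3 of the 10 numbered splits. BLNK stood first in both sets, and LYN was sixth in the numbered and eighth in the unnumbered order.

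Levels of the 9 genes moved together only weakly from split to split. Over the 20 splits, with each set centred on its own mean, the 36 pairs of genes had a median Pearson r of 0.13, and 23 pairs were above 0. The points share libraries and their depth, so these values are descriptions. The highest was 0.57 between CD79A and BLNK and the lowest -0.73 between LYN and BLNK. The LYN value rested on splits 9 and 251, which had the lowest BLNK and the highest LYN of their sets, and over the other 18 splits r was -0.02. Without the same splits r of CD79A and BLNK was 0.35. Of 5798 other genes at a mean of 10 FPKM or more, those most like BLNK were UFM1 (r = 0.86), FNBP1 (r = 0.74) and CNBP (r = 0.74). Those most like CD79A were SEC13 (r = 0.73), FLII (r = 0.72) and UQCRFS1 (r = 0.71), all over the 20 splits. In the numbered and the unnumbered splits apart, r with BLNK was 0.89 and 0.83 for UFM1, 0.52 and 0.87 for FNBP1 and 0.33 and 0.93 for CNBP. With CD79A it was 0.91 and 0.63 for SEC13, 0.55 and 0.86 for FLII and 0.80 and 0.69 for UQCRFS1. These genes were picked as the highest of 5798, and their r without splits 9 and 251 was not computed.

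The other genes of the pathway were taken from a list of 78 genes in 11 roles, of which 54 passed the filter. RAC2 and FCGR2B passed as higher in the numbered splits (2 of 54, where 3.93% of all genes tested did). IGLC2 and IGLC3 passed in the other direction (2 of 54, where 1.38% did), and 50 did not pass. An unadjusted p below 0.05 was reached by 10 of the 54, near the 16.3% of all genes tested. Their median log2 difference was 0.27, against 0.35 for all genes tested. Of the antigen-binding chains, the light chain constant gene IGLC2 averaged 18121 ± 2836 FPKM in numbered and 42848 ± 11042 FPKM in unnumbered splits (SD, n = 10 each), a log2 difference of -1.22 (SE 0.11, limma adjusted p = 3.10e-08). IGLC2 and IGLC3 are near-identical in sequence, so their reads may be split between them by the authors' counting. The 3 antigen-binding genes tested had a median of -1.22, but 2 of them were IGLC2 and IGLC3, and the remaining 1 did not pass. CD79A and CD79B, the pair they signal through, differed by 4.69 and 2.74 in the other direction, and CD79B did not pass (limma adjusted p = 0.278).

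Of the 2 inhibitory receptors tested, FCGR2B, the inhibitory Fc receptor of B cells, reached 1 FPKM in 9 numbered and 4 unnumbered splits, with medians of 63.4 and 0.0915 FPKM (log2 difference 3.78, SE 1.02, limma adjusted p = 0.0257). Of the VAV and RAC genes 2 were tested. RAC2, a small GTPase of blood cells, reached 1 FPKM in 9 numbered and 4 unnumbered splits, with medians of 297 and 0.141 FPKM (log2 difference 4.87, SE 1.23, limma adjusted p = 0.0157). Those of the phosphatases and kinase regulators tested (0 of 7 past the threshold) had a median of -1.18. Among them, PTPRC, the CD45 phosphatase that frees SRC-family kinases, had medians of 67.4 FPKM in numbered and 265 FPKM in unnumbered splits (log2 difference -2.66, limma adjusted p = 0.113).

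The 3 co-receptor genes did not pass. CR2, the complement receptor CD21, reached 1 FPKM in 8 numbered and 6 unnumbered splits (log2 difference 1.22, limma adjusted p = 0.605). The 3 other SRC-family kinases tested, the 5 adaptors and the 6 PI3 kinase and AKT genes did not pass either, and of these 14 and the co-receptor genes only NCK1 had an unadjusted p below 0.05. FYN reached 1 FPKM in 7 numbered and 5 unnumbered splits (1.22, limma adjusted p = 0.626), and among the adaptors DAPP1 did so in 9 and 7 splits (0.18, limma adjusted p = 0.943) and NCK1 in 5 and 0 splits (1.5, limma adjusted p = 0.163). Of the PI3 kinase catalytic subunits, PIK3CD, the form of white blood cells, reached 1 FPKM in 9 numbered and 5 unnumbered splits (1.15, limma adjusted p = 0.622) and PIK3CA in 2 and 0 splits (1.02, limma adjusted p = 0.460).

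Downstream of PLCG2, 0 of 8 calcium and NFAT genes and 0 of 8 RAS and MAP kinase genes passed in limma, and 1 of each 8 had an unadjusted p below 0.05, where 16.3% of all genes tested did. The calcium release channel ITPR2 reached 1 FPKM in 10 numbered and 8 unnumbered splits (log2 difference 0.94, limma adjusted p = 0.669), and ITPR1 in 4 and 1 splits (2.08, limma adjusted p = 0.219). BCL10, an adaptor on the way to NF-kB, had medians of 1.29 FPKM in numbered and 45.5 FPKM in unnumbered splits (-2.29, limma adjusted p = 0.288). RASGRP3, which loads RAS with GTP on diacylglycerol, had medians of 4.98 and 0.921 FPKM (0.80, limma adjusted p = 0.755). The differences of the named downstream genes thus ran in both directions, and none passed the threshold.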

How the data were processed

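The authors mapped reads with TopHat 1.4.1 and made FPKM with Cufflinks 2.0.2, per the submitters' processing notes, and deposited 1 table per library with FPKM, a lower and an upper bound and a status for 55040 genes. For these 20 tables no build is named in the sources used here; the processing notes of the other samples name hg19. Gene coordinates are those of the tables, counted from 1. Rows with too little data in every library (5797) or a failed estimate in any (128) were left out. The other 42 of 62 samples were not analysed here. FPKM is not a count, so log2(FPKM + 1) was tested with limma 3.58.1 (trended variance, R 4.3.3) over 10506 genes with a mean of 1 FPKM or more and Benjamini-Hochberg adjustment, threshold 0.05, as numbered minus unnumbered splits. Such differences understate changes of low genes. The fit was first tried on simulated normally distributed values with the mean and SD of each gene. Those lack the many zeros of these data, so the trial does not show how the fit does on them. Depth was estimated from the upper bounds of 12 mitochondrial genes. P-values treat the splits of a set as replicates and measure the spread between splits, which may be technical. If a set is 1 pool, they do not measure the spread between pools and cannot carry a difference between the sets over to other pools. Other pseudocounts, filters, scalings, a rank test and left-out libraries were tried.

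All 9 genes are named. Each pathway role names its gene with the highest mean FPKM and its gene with the smallest p, except for 3 genes that are not reported here. For BLNK and CD79A the 3 genes with the highest correlation are named. The members and lists were chosen with earlier results of these data known. FCGR2B, RAC2, IGLC2 and IGLC3 are the calls among the pathway genes. IGLC3 falls outside the rule and was named after its values were seen. Motif sequences came from GENCODE 29 transcripts on GRCh38. Summaries and figures used pandas 2.3.3, numpy 2.4.6, scipy 1.17.1 and matplotlib 3.10.9 under Python 3.11.15.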

Additional observations from a re-analysis of the deposited data

Results flagged for a closer look

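Of 22 sets of 10 values examined, 7 held a split whose distance from its nearest neighbour was large against the range of the set, which chance gives in about 1 of 20 sets of normally distributed values. Most of these sets hold many values near 0, for which that rate was not computed. In the numbered splits these were BLK in split 2, at 64.5 FPKM where the next split held 3.79 FPKM, and the number of the 9 genes found in split 9, which was 3 where the others held 6 to 9. In the unnumbered splits they were CD79A in split 232, at 110 FPKM where the next split held 41.9 FPKM, and SYK in the same split, at 57.8 FPKM where the next held 25.7 FPKM. LYN in split 251 stood at 44.7 FPKM, with the other 9 splits at 0.719 FPKM or less. BLK in split 249 stood at 13.0 FPKM against at most 4.52 FPKM in the others, and PLCG2 in split 233 at 106 FPKM against at most 13.5 FPKM. In all of these but SYK, whose other 9 unnumbered splits had a median of 6.16 FPKM, the median of the other 9 splits of the gene was below 1 FPKM.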

How the results depend on the processing

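Over 31 distinct alternatives, LYN stayed past the threshold in all 31 (log2 difference 1.89 to 6.80, limma or rank-sum adjusted p 2.13e-05 to 0.0116). CD79A did so in 30 (2.68 to 6.34, adjusted p 1.95e-04 to 0.0268). The exception was without splits 5 to 8 (adjusted p 0.0533), where 1 of the 9 genes passed and the cause was not tested. Leaving out 1 library at a time gave 2 to 3 of the 9 genes and 524 to 614 of all genes. The exact rank-sum test called 953 genes, against 558 in limma, and the same number of the 9 genes (2). Without splits 5 to 8, or with them as a covariate, CD22 turned to -0.43 and BTK to 0.81. Without splits 9, 247 and 253, BTK was 0.086 and BLNK 0.27. Leaving out single libraries gave -0.76 to 0.18 for BTK, above 0 in 6 of 20, and -1.29 to 0.0060 for BLNK, above 0 only without numbered split 9. None of these passed. The split of higher and lower calls was 413 and 145, and moved to 345 and 217 with libraries scaled to equal sums, 309 and 194 with size factors and 234 and 224 with the trend on transcript length removed. Over other thresholds for a gene to count as found, 53 to 73 values were found in the numbered and 31 to 53 in the unnumbered splits. A filter of 10 FPKM left out BLK and SYK, which then had no value. Between splits 5 to 8 and the other numbered splits 1 gene passed under each setting. No paired analysis was possible because the sets share no replicate numbers. Depth limits split 247 most, where BLNK rested on about 29.8 fragments. There 3 fragments of CD79A and CD79B amount to 18.7 and 18.5 FPKM.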

Other observations

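Of the 30 values of the 9 genes between 0 and 1 FPKM in the unnumbered splits, 8 were smaller than a single fragment on the gene's longest GENCODE 29 transcript would give at the depth estimated for the library, and of the 11 in the numbered splits 1 was. At 1 FPKM or more, a value stood for 48.1 to 17545 fragments (median 2207) in the numbered splits and for 20.5 to 35756 fragments (median 4808) in the unnumbered splits on the same transcripts.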
